A study of Homo sapiens with 9 samples.

Results

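The forkhead transcription factors form a family of proteins that share the winged-helix DNA-binding domain called the forkhead box. The genes described here were the named genes analysed here whose symbol was FOX, a class letter from A to S and a number, and each was represented by its row with the highest mean. This gave 43 genes of the 14884 named genes measured. The cells were MDA-MB-231, a human triple-negative breast cancer line with mesenchymal features. They were grown in serum-containing medium and exposed to JQ1, a small molecule that displaces BET bromodomain proteins from acetylated chromatin. Total RNA was hybridised to Affymetrix Human Gene 2.0 ST arrays in 3 groups of 3 arrays: controls labelled with no agent at time 0, cells after 12 h of 500 nM JQ1, and cells after 24 h of 500 nM JQ1. The labels name neither a vehicle nor controls cultured for 12 or 24 h, so an effect of JQ1 cannot be told apart from one of solvent or of time in culture. They do not say that the arrays of a group came from separate cultures, so the p-values reflect how far these arrays vary from each other, and that variation may be technical only. All results come from a single cell line.

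Forkhead proteins bind DNA around the core TGTTTAC and its reverse complement GTAAACA, and different classes serve very different tissues. FOXA proteins open closed chromatin for hormone receptors in luminal breast cells. FOXO proteins switch on stress-resistance, metabolic and growth-arrest genes, and they are held out of the nucleus when AKT phosphorylates them and 14-3-3 proteins bind them. FOXM1 acts late in the cell cycle, where it joins the MuvB complex and B-MYB at promoters of mitotic genes. FOXP, FOXK and FOXN proteins include transcriptional repressors, and FOXF proteins are best known from mesenchymal tissues.

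All values are the authors' deposited array values, which behaved as log2 intensities. A difference of 1 is therefore 2-fold, and a value sets a gene in one array against the same gene in another, not against other genes. A gene was called when limma's moderated test, fitted over all 9 arrays and all 14884 genes, gave a Benjamini-Hochberg adjusted p under 0.05. Control 3 stood apart from the other controls: it correlated with controls 1 and 2 at 0.983 each, against 0.995 between those 2. These correlations were over all 53617 deposited rows, named and unnamed. Control 3 is part of the fits unless stated, and calls of forkhead genes that it made or removed are given with and without it. For genes of the lists this is given for some only. The markers measured for this line ranged from 7.15 to 8.11 for CD44 and from 10.23 to 12.36 for VIM, MSN, AXL and EGFR. The oestrogen and progesterone receptor genes ESR1 and PGR lay between 3.93 and 5.17. Of the genes expected to be low, EPCAM, an epithelial adhesion molecule, lay between 6.07 and 6.49 and fell at 12 h (−0.28, adjusted p = 0.048, lost without any array other than control 3, up to 0.17), as did GATA3 (−0.38, lost without control 1, control 2 or any 12 h array). Markers of other cell types lay between 2.91 and 3.47 for the fibroblast genes DCN and LUM, between 4.10 and 5.06 for the endothelial genes PECAM1 and VWF, and between 4.11 and 4.57 for the monocyte gene CD14. None of these 5 was called in either comparison with the controls.

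After JQ1 few forkhead genes were called, as was so over all genes, and each one that was called fell. At 12 h FOXF2, FOXN2, FOXP1 and FOXP2 fell, 4 of 43 genes (9.3%), where 4.39% of all genes were called lower. At 24 h FOXF2, FOXN2 and FOXJ2 fell, 3 of 43 (6.98%), where 6.34% of all genes were called lower. No forkhead gene was called higher at either time by limma, where 3.54% of all genes were called higher at 12 h and 5.17% at 24 h. At an unadjusted p under 0.05 the higher genes were FOXO4 at 12 h and FOXO4 and FOXN3 at 24 h. Of all 14884 genes, 1565 were higher by that rule at 12 h and 1812 at 24 h. The median forkhead difference was 0.0014 at 12 h and 0.0172 at 24 h, beside 0.0108 and 0.0135 for all genes. Of the 43 genes, 36 (83.7%) lay within 0.25 of no difference at 12 h and 34 (79.1%) at 24 h, beside 74.6% and 71.4% of all genes. In either direction 7.93% of all genes were called at 12 h and 11.5% at 24 h. The family's shares, 9.3% and 6.98%, rest on 4 and 3 genes and were not tested against these. Both times were compared with the same 3 controls, so a gene that was low at both is not 2 independent findings.

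**Figure D1:**
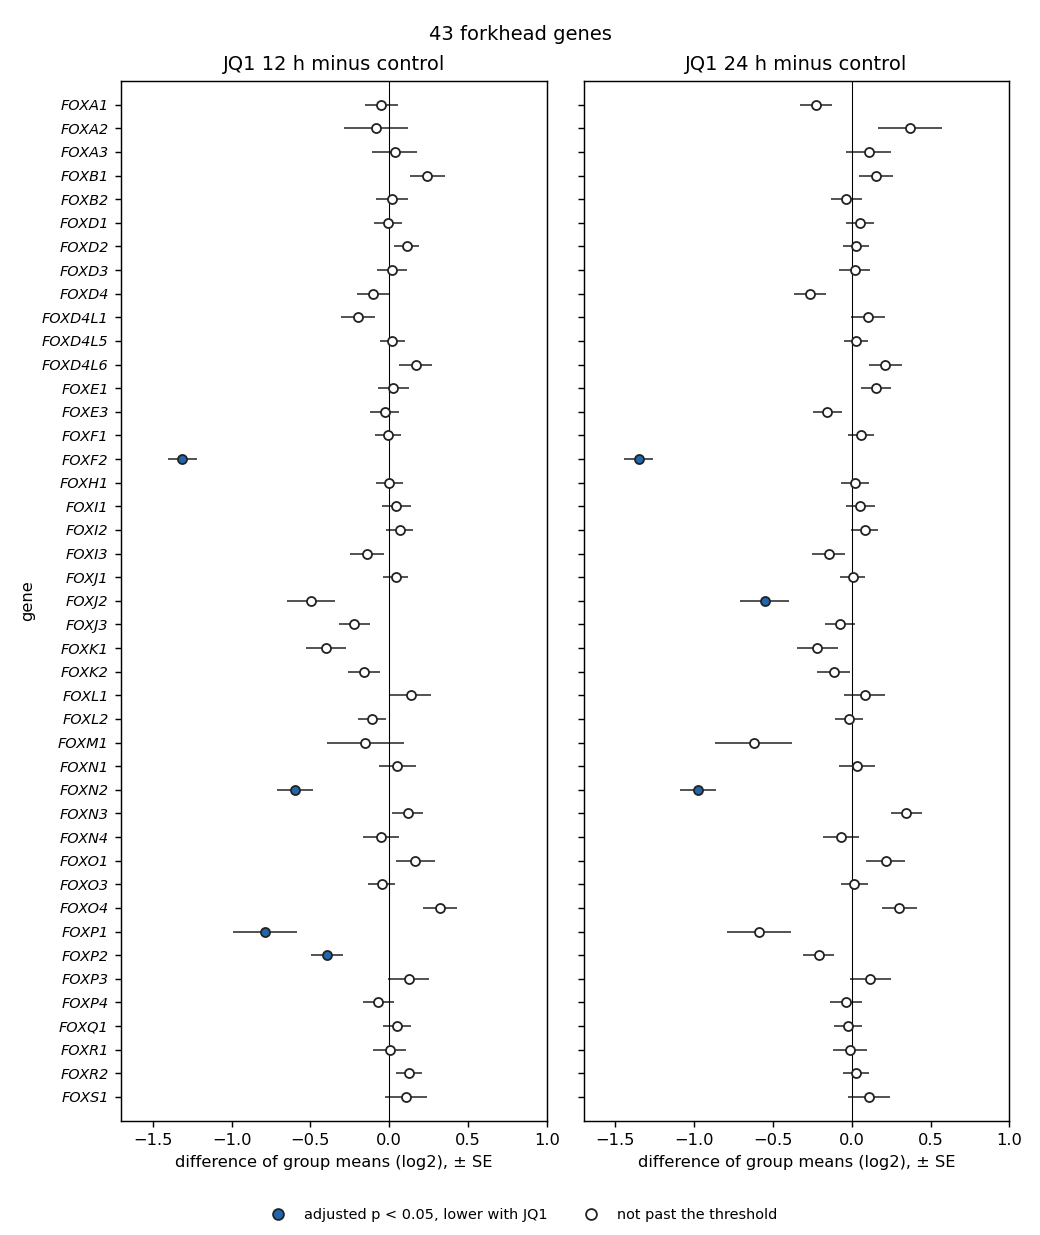
Log2 difference of each of the 43 forkhead genes from control after 12 h and after 24 h of JQ1, with its standard error (3 arrays a group) and a filled point where limma's adjusted p was under 0.05. FOXF2 lies furthest from 0 at both times, at −1.31 and −1.35, and most of the family sits within 0.25 of 0.

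FOXF2, which acts in the development of mesenchymal tissues such as the palate and the gut wall, had the largest fall of the family. FOXF2 stood at 8.05, 8.01 and 8.06 in the 3 controls at time 0, at 6.56, 6.91 and 6.72 after 12 h and at 6.63, 6.73 and 6.71 after 24 h. All 6 JQ1 arrays lay more than 1 log2 unit below all 3 controls, and control 3 was no exception. The mean was 6.73 ± 0.17 after 12 h, against 8.04 ± 0.03 in controls (SD, n = 3 each), a 2.48-fold fall (log2 −1.31, SE 0.09, limma adjusted p = 0.00018). After 24 h the mean was 6.69 ± 0.06 and the fall was 2.55-fold (log2 −1.35, SE 0.09, limma adjusted p = 9.8e-05). Both calls held whichever array was left out, with adjusted p up to 0.0020 at 12 h. As this is RNA from bulk cultures, fewer cells expressing a gene and less of its RNA per cell cannot be told apart, here and for every gene below. The difference between 24 h and 12 h was −0.04 (95% interval −0.25 to 0.17).

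The promoters of FOXF2 and FOXJ2 are shown because these were the genes called lower after JQ1 that have a single listed start in RefSeq's promoter table for GRCh38.p14. FOXP1 and FOXP2 have several listed starts, so their windows are described by the first of them and not printed. Each line gives the 250 bases before the first listed start, 5′ to 3′ on the gene's strand, for chr6:1389326-1389575 (plus strand) and chr12:8032466-8032715 (plus strand). Capitals mark the GC box GGGCGG and the CCAAT box, here in its reverse form ATTGG.
FOXF2: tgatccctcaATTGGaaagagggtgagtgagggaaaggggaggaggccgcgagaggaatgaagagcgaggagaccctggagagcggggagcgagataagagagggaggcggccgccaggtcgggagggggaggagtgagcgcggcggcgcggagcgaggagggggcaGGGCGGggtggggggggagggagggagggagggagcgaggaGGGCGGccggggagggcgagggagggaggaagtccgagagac
FOXJ2: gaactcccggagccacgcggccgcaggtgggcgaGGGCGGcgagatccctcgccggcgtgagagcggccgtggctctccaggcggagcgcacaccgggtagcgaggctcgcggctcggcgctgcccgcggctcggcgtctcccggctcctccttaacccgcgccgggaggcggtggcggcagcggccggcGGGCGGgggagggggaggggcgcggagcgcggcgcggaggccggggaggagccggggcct
FOXF2's window was 70.8% G and C and FOXJ2's 81.2%, beside a median of 67.0% over the 34 forkhead genes in the table and 58.0% over all 27305 promoters there. FOXF2 held 1 CCAAT box and 2 GC boxes, and FOXJ2 held 2 GC boxes. FOXP1's first window was 74.0% G and C and FOXP2's 37.6%, and each held 0 GC boxes and 0 CCAAT boxes. On either strand, a GC box (GGGCGG or CCGCCC) occurred in 22 of the 34 forkhead windows (64.7%) and in 57.8% of the 10749 windows of named genes on the array. A CCAAT box (CCAAT or ATTGG) occurred in 8 of 34 (23.5%), beside 34.3%. The forkhead core TGTTTAC or GTAAACA was in 0 of the 34 forkhead windows, beside 2.3% of the named genes' windows. A match is a description of the letters in this window, and no match says nothing about binding elsewhere.

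FOXN2 fell at both times. FOXN2, a widely expressed forkhead protein first described as a factor binding a T-cell leukaemia virus enhancer, measured 9.68, 9.73 and 9.58 in controls, 8.88, 9.16 and 9.17 after 12 h and 8.82, 8.77 and 8.48 after 24 h. The 3 groups did not overlap, with every 24 h array below every 12 h array. The difference from control was −0.60 at 12 h (SE 0.11, limma adjusted p = 0.015) and −0.98 at 24 h (SE 0.11, limma adjusted p = 0.0014), a 1.97-fold fall. The 24 h call held whichever array was left out, and the 12 h call was lost without control 1, control 2 or 12 h replicate 1 (adjusted p up to 0.062). The step from 12 h to 24 h, −0.38 (95% interval −0.64 to −0.12), did not pass over all genes (limma adjusted p = 0.51).

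**Figure D2:**
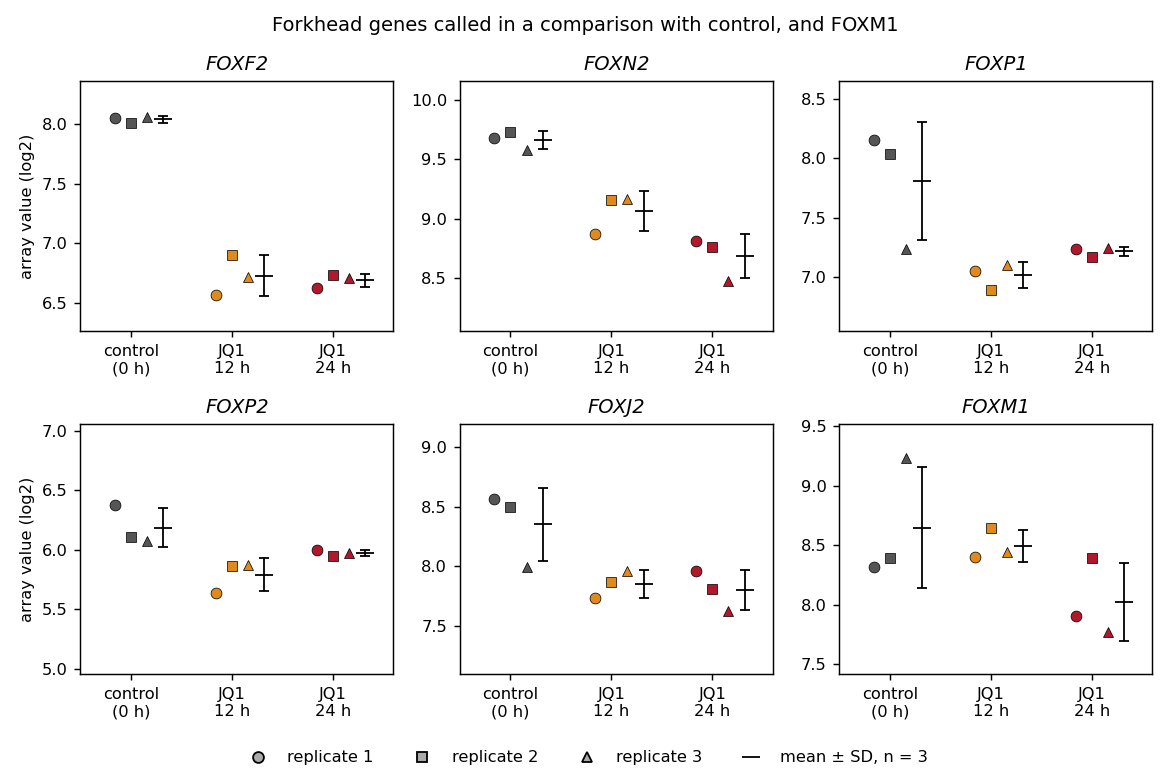
Deposited log2 value of FOXF2, FOXN2, FOXP1, FOXP2, FOXJ2 and FOXM1 in controls, after 12 h and after 24 h of JQ1 (1 point per array, bars for mean ± SD, n = 3). FOXF2's JQ1 arrays all lie below 7 and its controls all above 8, while control 3 lies near the JQ1 arrays for FOXP1 and above all other arrays for FOXM1.

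FOXP1 and FOXP2, related repressors that can pair with each other, passed the test at 12 h and not at 24 h. FOXP1, which acts in B-cell, heart and lung development, read 8.15 and 8.03 in controls 1 and 2 but 7.24 in control 3. It read 7.05, 6.89 and 7.10 after 12 h and 7.24, 7.17 and 7.24 after 24 h, so that control 3 lay at the level of the 24 h arrays. The fall at 12 h was −0.79 (SE 0.20, limma adjusted p = 0.047), and it was lost without any array other than control 3 (adjusted p up to 0.16). The difference at 24 h was −0.59 (SE 0.20, limma adjusted p = 0.10). Without control 3 FOXP1 was called at both times, at −1.07 (adjusted p = 5.1e-05) and −0.87 (adjusted p = 0.00016).

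FOXP2, known for its part in speech and language development, read 6.37, 6.11 and 6.07 in controls, 5.64, 5.87 and 5.87 after 12 h and 5.998, 5.95 and 5.98 after 24 h. All JQ1 arrays lay below the controls, the 24 h arrays by a small margin. The difference was −0.39 at 12 h (SE 0.10, limma adjusted p = 0.046) and −0.21 at 24 h (SE 0.10, limma adjusted p = 0.24). Its 12 h call was also lost without any array other than control 3 (adjusted p up to 0.15), and without control 3 it stood at −0.45 (adjusted p = 0.015). FOXP4, a relative with roles in lung development, read 8.37, 8.57 and 8.19 in controls, 8.36, 8.35 and 8.21 after 12 h and 8.30, 8.39 and 8.33 after 24 h. Its groups overlapped throughout, with differences of −0.07 (95% interval −0.29 to 0.16) and −0.04 (−0.26 to 0.19). FOXP3, the defining factor of regulatory T cells, differed from control by 0.12 at each time and was not called.

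FOXJ2, a transcriptional activator of broad expression, was lower at both times and passed the test at 24 h. It stood at 8.56, 8.49 and 7.998 in controls, at 7.73, 7.87 and 7.96 after 12 h and at 7.96, 7.81 and 7.63 after 24 h. Control 3 lay just above the highest JQ1 arrays, and the other 2 controls lay well above them. The difference was −0.50 at 12 h (SE 0.15, limma adjusted p = 0.087) and −0.55 at 24 h (SE 0.15, limma adjusted p = 0.049). The 24 h call was lost without any array other than control 3 (adjusted p up to 0.17), and without control 3 FOXJ2 was called at both times, at −0.67 and −0.73. Its relative FOXJ3 read 9.08, 9.02 and 8.89 in controls, 8.66, 8.84 and 8.82 after 12 h and 9.03, 8.98 and 8.75 after 24 h. FOXJ3's 12 h arrays lay below the controls (−0.22, adjusted p = 0.23) and its 24 h arrays overlapped them (−0.08, adjusted p = 0.73).

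FOXK1, a repressor of autophagy genes that works with the SIN3 complex, read 8.66, 8.78 and 8.30 in controls, 8.27, 8.14 and 8.14 after 12 h and 8.51, 8.33 and 8.26 after 24 h. Its 12 h arrays lay below all controls, though only just below control 3. FOXK1 missed the threshold at both times (−0.40, adjusted p = 0.097, and −0.22, adjusted p = 0.35) and passed at both without control 3 (−0.54, adjusted p = 0.0038, and −0.36, adjusted p = 0.027). Without that array 6 forkhead genes were called at 12 h, all lower, where 20.1% of all genes were called, 10.5% lower and 9.57% higher. At 24 h 5 were called, again all lower, where 20.9% of all genes were called, 11.3% lower and 9.61% higher. FOXK2, its close relative, differed by −0.16 at 12 h and −0.12 at 24 h and was not called.

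FOXM1 did not pass the test at any comparison, and its level varied as much among the controls as between the groups. FOXM1 read 8.32, 8.39 and 9.23 in controls, 8.40, 8.65 and 8.44 after 12 h and 7.91, 8.39 and 7.77 after 24 h. Control 3 was the highest of the 9 arrays, and 24 h replicate 2 lay at the level of controls 1 and 2. The difference from control was −0.15 at 12 h (95% interval −0.70 to 0.40, limma adjusted p = 0.82) and −0.62 at 24 h (−1.17 to −0.07, limma adjusted p = 0.15). Without control 3 these were 0.14 (adjusted p = 0.68) and −0.33 (adjusted p = 0.22), so the sign at 12 h rested on that array. Between 24 h and 12 h FOXM1 differed by −0.47 (−1.02 to 0.08, limma adjusted p = 0.79), and the 2 groups only just failed to overlap.

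Of a list of 30 mitotic genes that FOXM1 is known to drive 24 were measured, and at 24 h 11 of them fell and none was called higher, beside 6.34% of all genes called lower. At an unadjusted p under 0.05 the limma counts were 15 lower and 0 higher, beside 1913 lower and 1812 higher of all 14884 genes. The list's median difference at 24 h was −0.63, beside 0.0135 for all genes. The other 13 members were not called, and KIF20A and CDC25B, each at 0.10, were above control. Without control 3 KIF20A was called higher at 12 h (1.56, limma adjusted p = 0.00010) and at 24 h (0.72, limma adjusted p = 0.0070). The lowest were HMMR, a hyaluronan receptor that also binds the spindle (−1.34, SE 0.15, adjusted p = 0.0012), PRC1, which bundles microtubules of the central spindle (−1.06, SE 0.14, adjusted p = 0.0024), and AURKA, a centrosomal kinase (−0.89, SE 0.20, adjusted p = 0.020). HMMR read 8.64, 8.65 and 8.44 in controls, 7.83, 8.06 and 8.06 after 12 h and 7.07, 7.61 and 7.03 after 24 h, with no overlap between any groups. At 12 h the list's median was 0.0070, and HMMR was the only member called (−0.59, adjusted p = 0.047, lost without any array other than control 3 and 24 h replicate 2).

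In each array the list's median deviation from the genes' own means was high and low in the same arrays as FOXM1. It was 0.05, 0.02 and 0.51 in controls, 0.10, 0.26 and 0.18 after 12 h and −0.51, −0.04 and −0.65 after 24 h. Control 3 was thus the highest and 24 h replicates 1 and 3 the lowest, with 24 h replicate 2 close to controls 1 and 2. Without 24 h replicate 1 or without replicate 3, 4 members were called at 24 h, without control 1 there were 6, and without control 2 or 12 h replicate 2 or 3 there were 7. Over all genes, leaving out 1 array gave 786 to 3111 calls at 24 h. Without control 3, 12 members fell and 1 rose at 24 h, beside 11.3% of all genes lower and 9.61% higher. At 12 h 5 rose and 1 fell without it, beside 9.57% of all genes higher and 10.5% lower. HMMR, PRC1, ECT2 and KIF2C kept their 24 h call whichever array was left out, and AURKA lost it without 24 h replicate 1 or 3 (adjusted p up to 0.085).

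**Figure D3:**
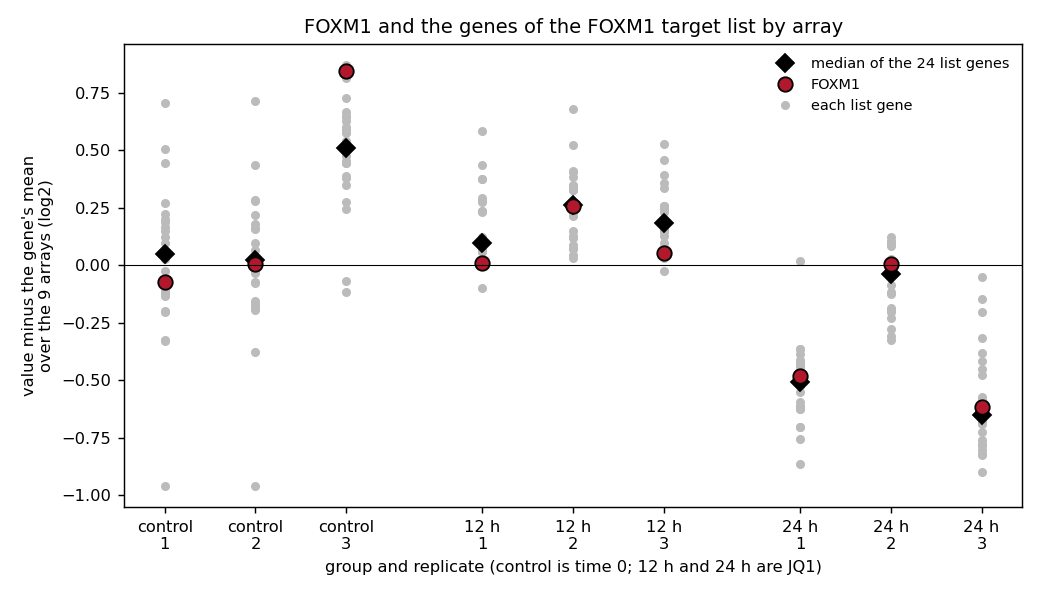
Deviation from the mean over 9 arrays, in log2 units, of FOXM1 and of the 24 measured genes of its target list (median and single genes), array by array in controls, after 12 h and after 24 h of JQ1. Control 3 is the highest array for FOXM1 (0.84) and for the list (0.51), and 24 h replicates 1 and 3 are the lowest.

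All 24 measured list members were lower at 24 h than at 12 h, with a median of −0.64, beside 0.0006 for all genes. None of them was called in that comparison, in which limma called 0.00672% of all genes. At an unadjusted p under 0.05, 19 of them were lower and 0 higher, beside 508 lower and 487 higher of all 14884 genes. No forkhead gene was called either, while at an unadjusted p under 0.05 FOXN2 was lower and FOXN3 and FOXD4L1 were higher. The values of FOXM1, FOXN2, FOXN3, FOXP1 and FOXP2 did not overlap between 24 h and 12 h, 5 of 43 genes, where 12.9% of all genes did not overlap. FOXM1 and FOXN2 were lower at 24 h, beside 7.11% of all genes, and the other 3 were higher, beside 5.76%.

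The promoters of these genes are shown because many carry the cell cycle genes homology region (CHR), the element TTTGAA or TTCAAA through which MuvB complexes, including the one that FOXM1 joins, contact mitotic genes. Each line gives up to 35 bases around a match (capitals), 5′ to 3′ on the gene's strand, from RefSeq's promoter table for GRCh38.p14, for the list members called lower at 24 h that had one. The regions are chr5:163460589-163460623 (plus strand) for HMMR, chr15:90994536-90994570 (minus) for PRC1, chr15:59105102-59105136 (plus) for CCNB2, chr10:60778155-60778189 (plus) for CDK1, chr3:172750596-172750630 (plus) for ECT2 and chr1:43358901-43358935 (plus) for CDC20.
HMMR: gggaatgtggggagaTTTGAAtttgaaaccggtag
PRC1: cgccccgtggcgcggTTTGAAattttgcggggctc
CCNB2: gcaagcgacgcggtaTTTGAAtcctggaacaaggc
CDK1: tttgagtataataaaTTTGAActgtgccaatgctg
ECT2: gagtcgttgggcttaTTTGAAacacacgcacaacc
CDC20: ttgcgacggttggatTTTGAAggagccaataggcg
HMMR's window holds a second copy directly after the capitals, and CDC20 had a further match outside the window shown. The matches began at position −28 from the start in HMMR, −20 in PRC1, −29 in CCNB2, −161 in CDK1, −115 in ECT2 and −65 in CDC20. A CHR match within 250 bases before the start occurred in 12 of the 21 list members in the table (57.1%) and in 10.4% of the 10749 windows of named genes. Among list members it was in 6 of the 9 called lower at 24 h and in 6 of the 12 not called. A CCAAT box occurred in 17 of 21 (81.0%), beside 34.3%. Among the forkhead genes a CHR match occurred in 7 of 34 (20.6%).

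Genes of the MuvB and DREAM complexes, not all of them partners of FOXM1, also included some that fell at 24 h. Of 12 listed genes 10 were measured, and MYBL2, RBL1, LIN9 and LIN54 fell while none was called higher, beside 6.34% of all genes called lower and 5.17% higher. MYBL2, which encodes B-MYB, read 9.89, 9.87 and 10.66 in controls, 10.01, 10.07 and 9.73 after 12 h and 8.93, 9.18 and 8.80 after 24 h. All 24 h arrays lay below the other 6, for a difference from control of −1.17 (SE 0.21, limma adjusted p = 0.0086) that held whichever array was left out. RBL1, the pocket protein p107, differed by −0.84 (adjusted p = 0.025), LIN9, a MuvB core subunit, by −0.82 (adjusted p = 0.018), and LIN54, the subunit that contacts the CHR, by −0.54 (adjusted p = 0.028). These 3 calls were lost without 24 h replicate 1 or without replicate 3, and those of RBL1 and LIN54 also without control 2, and that of LIN54 without control 1 (adjusted p up to 0.098). At 12 h limma called none of the 10, and TFDP2 was lower at an unadjusted p under 0.05, as were 1643 of all 14884 genes.

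The 10 named genes whose profile over the 9 arrays lay closest to FOXM1's, by the root mean square distance between gene-centred log2 values, were BARD1, DDIAS, ZWINT, DTL, LRR1, KIF18B, ZNF100, TMPO, WDHD1 and PSMC3IP. Their distances ran from 0.0927 for BARD1 to 0.112 for PSMC3IP, beside a median of 0.425 over all genes. All 10 had their highest value in control 3, which the choice by closeness to FOXM1 fixed in advance, so it is no separate finding. Of the 10, 0 were on the FOXM1 target list.

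The 3 FOXO genes measured, which encode the nuclear effectors that insulin and growth factor signalling restrains, were not called at any time. FOXO1 read 7.59, 7.53 and 7.22 in controls, 7.60, 7.56 and 7.68 after 12 h and 7.88, 7.51 and 7.59 after 24 h. Control 3 was its lowest array and the other groups overlapped, with differences of 0.17 (95% interval −0.12 to 0.45, limma adjusted p = 0.53) and 0.22 (−0.07 to 0.50, limma adjusted p = 0.35). FOXO3 read 6.67, 6.74 and 6.80 in controls, 6.72, 6.66 and 6.68 after 12 h and 6.82, 6.86 and 6.58 after 24 h. Its differences were −0.05 (−0.25 to 0.15, limma adjusted p = 0.84) and 0.02 (−0.18 to 0.21, limma adjusted p = 0.95), so that neither interval reaches beyond 0.25 in size. A second row named FOXO3 also overlapped between groups, at −0.13 and −0.14.

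FOXO4 read 6.45, 6.52 and 6.20 in controls, 6.74, 6.59 and 6.82 after 12 h and 6.82, 6.58 and 6.68 after 24 h. All 6 JQ1 arrays lay above all 3 controls, the nearest by a small margin. The differences of 0.32 (0.08 to 0.57, limma adjusted p = 0.11) and 0.30 (0.06 to 0.55, limma adjusted p = 0.12) did not pass over all genes. Without control 3 they were 0.23 (adjusted p = 0.17) and 0.21 (adjusted p = 0.20).

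Genes described as FOXO targets held both rises and falls. Of 32 listed 22 were measured, and 6 rose and 1 fell at each time, beside 3.54% of all genes called higher and 4.39% lower at 12 h and 5.17% and 6.34% at 24 h. The list's median difference was 0.10 at 12 h and 0.11 at 24 h. SESN3, a sestrin that restrains mTORC1 and oxidative stress, had the largest rise. It read 5.62, 5.63 and 5.26 in controls, 8.19, 7.92 and 8.35 after 12 h and 8.18, 7.65 and 7.93 after 24 h. All 6 JQ1 arrays lay more than 2 log2 units above all controls (log2 2.65 and 2.41, SE 0.16 each, limma adjusted p = 0.00011 and 9.8e-05). KLF2, a Krüppel-like factor of quiescent lymphocytes and endothelium, rose by 1.37 and 1.22 (adjusted p = 0.0014 and 0.0013).

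Other FOXO targets that rose were the sestrin SESN1 (0.99 at 12 h, adjusted p = 0.014, and 0.71 at 24 h, adjusted p = 0.041), the mitophagy receptor BNIP3 (0.83 and 0.89), catalase, CAT (0.75 and 1.07), the pro-apoptotic BCL2L11 at 12 h (0.85, adjusted p = 0.040) and the mitophagy kinase PINK1 at 24 h (1.33, adjusted p = 0.015). IGFBP1, an insulin-like growth factor binding protein induced in liver by FOXO1, fell instead. It read 9.03, 8.90 and 7.64 in controls, 7.08, 7.32 and 7.37 after 12 h and 7.35, 6.91 and 7.37 after 24 h. Control 3 lay far nearer to the JQ1 arrays than to the other controls, and the differences were −1.27 (SE 0.32, limma adjusted p = 0.044) and −1.32 (SE 0.32, limma adjusted p = 0.030). Without control 3 they were −1.71 and −1.76. BCL2L11 at 24 h was 0.64 with control 3 (adjusted p = 0.086) and 0.93 without it (adjusted p = 0.00026).

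SESN3, KLF2, BNIP3 and CAT kept both calls whichever array was left out. IGFBP1 at both times and BCL2L11 at 12 h lost theirs without any array other than control 3 (adjusted p up to 0.15), and PINK1 lost it at 24 h without replicate 1 or 3 of that group (up to 0.072). SESN1 lost its 12 h call without control 1, control 2 or 12 h replicate 2 or 3 (up to 0.058), and its 24 h call without any array other than control 3 and 12 h replicate 3 (up to 0.15). Without control 3, 7 members rose and 5 fell at each time, and the list's median was −0.03 at 12 h and 0.07 at 24 h. That fit called 9.57% of all genes higher and 10.5% lower at 12 h, and 9.61% and 11.3% at 24 h. Without control 1 or 2, or 12 h replicate 2 or 3, 4 were called at 12 h, and without 24 h replicate 1 or 3, 4 were called at 24 h, all of them higher. Over all genes, leaving out 1 array gave 543 to 2986 calls at 12 h and 786 to 3111 at 24 h.

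**Figure D4:**
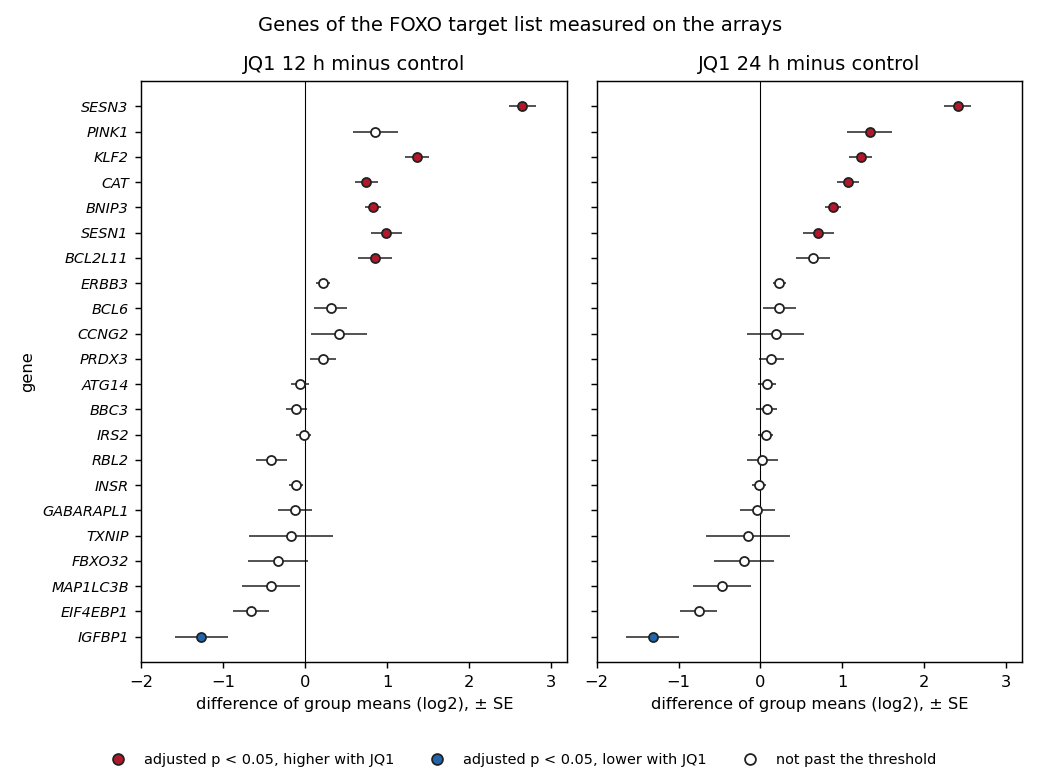
Log2 difference from control of the 22 measured genes of the FOXO target list after 12 h and after 24 h of JQ1, with standard errors (3 arrays a group) and filled points where limma's adjusted p was under 0.05. SESN3 lies furthest above 0 at 2.65 and 2.41, and IGFBP1 furthest below at −1.27 and −1.32.

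The forkhead core TGTTTAC or GTAAACA occurred in the windows of 2 of the 17 FOXO list members in the promoter table (11.8%), beside 2.3% of the named genes' windows. None of the 5 members with an entry that rose at 24 h held it. The 2 were BCL2L11, called higher at 12 h, and TXNIP, an inhibitor of thioredoxin, which was not called (−0.17 and −0.15) but was called lower at both times without control 3 (−0.94 and −0.91). TXNIP read 11.12 and 11.11 in controls 1 and 2 and 8.82 in control 3, below all 6 JQ1 arrays. Both matches (capitals) are shown because they carry the motif of the family, at chr2:111120676-111120711 (plus strand, GRCh38.p14, from position −223) and chr1:145996683-145996718 (minus strand, from position −124).
BCL2L11: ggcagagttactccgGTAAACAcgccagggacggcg
TXNIP: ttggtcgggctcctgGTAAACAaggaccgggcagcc

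Of 27 listed regulators of FOXO proteins, the kinases, 14-3-3 proteins, acetylases and deacetylases that set where they sit and how active they are, 11 were measured. At 12 h 2 of the 11 were called, beside 7.93% of all genes, and at 24 h 1, beside 11.5%. Without control 3 these counts were 5 and 2, beside 20.1% and 20.9%. CREBBP, an acetyltransferase that binds FOXO proteins, fell at both times (−0.72, adjusted p = 0.013, and −0.78, adjusted p = 0.0067). It read 10.52, 10.55 and 10.39 in controls, 9.64, 9.98 and 9.67 after 12 h and 9.60, 9.97 and 9.54 after 24 h, with all JQ1 arrays below all controls. SIRT1, a deacetylase of FOXO proteins, rose at 12 h (0.47, adjusted p = 0.027), and its 24 h difference of 0.05 did not pass (adjusted p = 0.84). SIRT1's step between the 2 times was not called. The 12 h calls of CREBBP and SIRT1 were lost without control 1 or 2 or 12 h replicate 3, and each without 1 further 12 h array (adjusted p up to 0.076). CREBBP's 24 h call held whichever array was left out.

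FOXA2, a pioneer factor of liver, pancreas and gut, read 8.64, 8.68 and 8.29 in controls, 8.49, 8.23 and 8.64 after 12 h and 9.30, 8.49 and 8.93 after 24 h. The 24 h arrays were spread wide and overlapped the controls, with differences of −0.08 (adjusted p = 0.89) and 0.37 (95% interval −0.08 to 0.83, adjusted p = 0.31). FOXA1, the pioneer factor of luminal breast cells, lay between 4.70 and 5.16 over the 9 arrays and differed by −0.05 and −0.23, neither called. FOXD4, a gene with several close copies in the genome whose signals the array may mix, read 8.71, 8.56 and 8.80 in controls, 8.52, 8.68 and 8.56 after 12 h and 8.37, 8.61 and 8.30 after 24 h. Its groups overlapped, at −0.10 (adjusted p = 0.67) and −0.26 (adjusted p = 0.14).

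The other 29 forkhead genes were not called in any comparison. Their differences ran from −0.20 (FOXD4L1) to 0.24 (FOXB1) at 12 h and from −0.23 (FOXA1) to 0.34 (FOXN3) at 24 h. FOXN3, a repressor first isolated as a checkpoint suppressor in yeast, was closest to the threshold. It read 7.08, 7.17 and 7.06 in controls, 7.27, 7.17 and 7.22 after 12 h and 7.34, 7.34 and 7.66 after 24 h. The 24 h arrays lay above all others, with a difference from control of 0.34 (95% interval 0.12 to 0.57, limma adjusted p = 0.053). Over the whole family 11 genes did not overlap between 12 h and control, where 22.2% of all genes did so. Of these 8 were lower and 3 higher, beside 10.9% and 11.3%. At 24 h 6 genes did not overlap, where 26.1% of all genes did so. Of these 4 were lower and 2 higher, beside 12.8% and 13.3%. The 4 were FOXF2, FOXJ2, FOXN2 and FOXP2, and the 2 were FOXN3 and FOXO4.

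Many tissue-restricted members, such as FOXN1 of the thymus, FOXE1 of the thyroid, FOXL2 of the ovary, FOXI1 of the kidney and inner ear and FOXJ1 of motile cilia, differed from control by −0.11 (FOXL2 at 12 h) to 0.15 (FOXE1 at 24 h). No detection calls were used, so presence of their RNA in these cells was not tested.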

How the data were processed

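The authors' deposited table holds log2 values for 53617 rows in 9 arrays. Transcriptome Analysis Console made them, per the submitters' processing notes. Which version, which normalization and which genome build are not given in the sources used here. The log2 scale was read from the values, which ran from 2.01 to 13.9 with array medians of 4.92 to 4.96. The platform's gene table named 16098 rows with 1 symbol and 37519 with none. The highest-mean row stood for each gene.

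R 4.3.3 and limma 3.58.1 fitted a mean per group over all 9 arrays, with Benjamini-Hochberg adjustment over 14884 genes per comparison and 3.14 prior degrees of freedom. A simulation used each gene's mean and pooled spread with independent normal noise, and changed 200 of 14884 genes at 24 h. Of these, 49% were recovered at a log2 change of 0.5 and 88% at 1, with 4 false calls. It had no outlying array, no correlation between genes and fewer changed genes than the 1714 called at 24 h. These rates therefore need not hold for the deposited values. Alternatives were a mean-variance trend, a filter on dim genes, quantile normalization, all rows, the mean of a gene's rows, array weights, only the groups compared, the replicate number as a block, and leaving out each array. Precision is limited by 3 arrays a group.

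The forkhead genes and the lists were chosen with earlier results of these data known, so list counts are descriptions with no set test. Every array is given for FOXM1, the FOXO genes, genes called in any comparison and the next 5 forkhead genes by mean. From each list the 3 highest and 3 lowest called members are named, with any member called where 5 or fewer were. The exception is the FOXM1 list at 24 h, whose highest called members are not all named. Further genes, among them FOXN3, FOXK2 and the genes whose promoters are shown, were singled out after their values were seen. The other lists were cell type markers and genes of luminal breast cells. Promoters came from RefSeq's table (34 of the 43 genes matched, first listed start).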

Additional observations from a re-analysis of the deposited data

How the results depend on the processing

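FOXF2 kept its call and direction at both times, and FOXN2 at 24 h, under every alternative tried. The number of forkhead genes called at 12 h was 4 with all arrays and 2 (FOXF2 and FOXN2) with every row of the table, with only the 2 groups compared, or with the replicate number as a block. FOXP2 lost that call with a mean-variance trend and FOXP1 with quantile normalization. At 24 h the number was 3, and FOXJ2 lost its call with the trend, quantile normalization, every row or only the 2 groups. It was 8 with array weights, of which FOXN3 and FOXD4L6 were higher, and FOXN3 was also called higher with dim genes left out. The 6 lower with array weights were FOXA1, FOXF2, FOXJ2, FOXK1, FOXN2 and FOXP1. FOXA1 was called under no other alternative. A second row named FOXD4L6 went the other way, at −0.22 at 12 h and −0.28 at 24 h. Array weights, which gave control 3 the lowest weight, raised the count over all genes to 3498 at 12 h, 3764 at 24 h and 14 between the 2 times. Fitting only the 2 groups gave 577 and 994, and every row gave 3 between the times. Leaving out 1 array in turn gave 1 to 6 forkhead genes at 12 h, 2 to 5 at 24 h and 0 to 0 between the times. Over all genes it gave 543 to 2986, 786 to 3111 and 1 to 22, each time highest without control 3. The FOXM1 list gave 0 to 6, 4 to 13 and 0 to 1, and the FOXO list 4 to 12 at each time against control. Signs turned for differences that were not called: FOXM1 at 12 h became 0.13 with array weights, FOXO3 at 24 h −0.062 with the mean of its rows, and FOXO4 between the times 0.019 with array weights. Leaving out 1 array gave −0.32 to 0.14 for FOXM1, −0.21 to 0.031 for FOXA2 and −0.16 to 0.027 for FOXP4 at 12 h. It gave −0.038 to 0.10 for FOXO3, −0.13 to 0.0096 for FOXJ3 and −0.13 to 0.060 for FOXP4 at 24 h. Between the times it gave −0.061 to 0.13 for FOXO1, −0.084 to 0.037 for FOXO4, −0.12 to 0.049 for FOXF2, −0.14 to 0.032 for FOXJ2 and −0.015 to 0.057 for FOXP4. The cause was not tested. Same-numbered arrays did not pair, with correlations of their deviations from −0.32 to 0.22. A replicate block left 2 forkhead genes called at each time against control, and 8 of the FOXM1 list at 24 h.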

Other observations

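FOXA1 works with oestrogen receptor and GATA3 in luminal breast cells, and 11 of 12 listed luminal genes were measured. At 12 h 2 were called, beside 7.93% of all genes, and at 24 h 5, beside 11.5%. KRT18, a keratin of simple epithelia, rose at both times (0.61 each), and KRT8 (0.39) and KRT19 (0.97) rose at 24 h. GATA3 fell at both times (−0.38 and −0.41) and XBP1, a secretory pathway factor, fell at 24 h (−1.58, adjusted p = 0.019). XBP1 read 10.10, 10.16 and 8.61 in controls, 8.41, 8.39 and 8.41 after 12 h and 7.91, 8.08 and 8.14 after 24 h, so that control 3 lay near the 12 h arrays. Its 12 h difference was −1.22 (adjusted p = 0.064), and without control 3 XBP1 was called at both times (−1.73 and −2.08), while KRT19 at 24 h was not (adjusted p = 0.051). Without control 2 none of these genes was called, and without control 1 GATA3 at 24 h alone was (adjusted p up to 0.17 over all arrays left out). The 24 h calls of KRT8, KRT18, KRT19 and XBP1 were also lost without 24 h replicate 1 or 3, and XBP1's without replicate 2. KRT8's was lost without any 12 h array as well, and KRT19's without 12 h replicate 1 or 3. KRT18's 12 h call was also lost without 12 h replicate 1 or 2 or 24 h replicate 1. ESR1 was not called.

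The measured genes nearest to the 5 forkhead genes that fell, the next 2 on each side in RefSeq's gene order, included 4 that fell. Of the 20 genes 2 fell at 12 h, beside 4.39% of all genes, and 4 at 24 h, beside 6.34%. MDFIC, next to FOXP2, fell at both times (−0.55 and −0.89), as did PXDC1, 18 genes from FOXF2 (−0.83 and −0.73). MITF, near FOXP1, fell at 24 h (−0.54, adjusted p = 0.0098), and C3AR1, next to FOXJ2, fell at 24 h (−0.38, adjusted p = 0.038). FOXQ1, the forkhead gene nearest to FOXF2, differed by 0.05 and −0.03 and was not called.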
